A study of Mus musculus with 23 samples.

Results

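Oxidative phosphorylation genes were examined in the livers of mice that received pregnenolone 16α-carbonitrile (PCN), a ligand of the mouse pregnane X receptor (PXR, gene Nr1i2). Members were chosen by the gene names of the array: all names that start with Nduf, Uqcr or Atp5, the 4 names Sdha to Sdhd, and Cox followed by a digit from 4 to 8. One gene, Ndufb4, was left out because its probe lies in the stretch of chromosome 16 around Nr1i2 that the choice set aside, and Cox5b was not analysed here. This gave 91 of 37074 gene names on the array, each read from its brightest probe, and 88 of them passed the filter on dim signals. All 88 were well above background on all 23 arrays, so that no member passed through 1 group alone. The 3 others were the tissue isoforms Cox7b2, Cox8b and Cox8c, whose probes were well above background on 5, 7 and 0 arrays.

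The mice were male, on the C57Bl6/J background, and were studied in 4 groups. WT CONT (n = 6) and WT PCN (n = 5) mice carried the intact receptor and were purchased at 6 weeks of age. Pxr-/- CONT (n = 6) and Pxr-/- PCN (n = 6) mice lacked it and were bred in the facility of the study, so genotype and colony cannot be told apart. All mice were acclimatized for 2 weeks and were injected intraperitoneally once a day for 4 days, with PCN at 100 mg/kg in corn oil or with corn oil alone, and were killed at zeitgeber time 6 h, 6 h after the last injection. The labels call this state fed, whereas the study describes mice at this hour as semi-fasted.

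The respiratory chain of the inner mitochondrial membrane passes electrons from NADH (complex I) and succinate (complex II) through ubiquinone, complex III and cytochrome c to oxygen at complex IV, and the proton gradient built on the way drives ATP synthase. Most subunits are encoded in the nucleus and a few in mitochondrial DNA. Hepatocytes are rich in mitochondria and use the chain to reoxidize the carriers reduced in fatty acid β-oxidation, and the coactivators PGC-1α and PGC-1β, with the factors NRF1 and ERRα, are known inducers of its genes. The members kept here were 35 subunits of complex I, 4 of complex II, 8 of complex III, 14 of complex IV (with Ndufa4, now counted to this complex), 15 of ATP synthase, 7 complex I assembly factors named Ndufaf, and 5 related proteins or pseudogenes.

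PCN acted as labelled on its classical target. Cyp3a11, a drug-metabolizing cytochrome P450 induced through PXR, had log2 signals of 12.83 to 14.02 in WT CONT and of 16.90 to 17.29 in WT PCN mice, a change of 3.55 (limma, adjusted p = 4.12e-10). In Pxr-/- mice its signals ran from 13.33 to 14.78 without and from 14.14 to 15.13 with PCN (change 0.31, adjusted p = 0.431), and the effects in the 2 genotypes differed by 3.24 (adjusted p = 1.23e-06). The probe for Nr1i2 gave overlapping ranges in WT CONT (10.63 to 12.15) and Pxr-/- CONT livers (10.16 to 12.08). Where that probe lies relative to the deleted exons was not known here, so it checks nothing. Hepatocyte markers were all 10 well measured, with a summed linear signal of 1110870 to 1513380 over WT CONT, 1151920 to 1270530 over WT PCN, 1266040 to 1427190 over Pxr-/- CONT and 1276150 to 1396530 over Pxr-/- PCN livers. The brightest markers weigh most in this linear sum, so it says little about dimmer ones (log2 means in WT CONT of 18.56 for Alb and 13.15 for G6pc). Single markers moved: at an adjusted p of at most 0.05 (limma), 1 was lower in WT and 2 were higher in Pxr-/- mice. Apob was 15.77 to 15.97 in WT CONT and 15.13 to 15.50 in WT PCN livers. Apoa1 was 16.09 to 16.35 in Pxr-/- CONT and 16.58 to 17.13 in Pxr-/- PCN livers. By sign, 2 markers were positive and 8 negative in WT mice, and 5 were positive and 5 negative in Pxr-/- mice. The largest change in Pxr-/- mice was that of G6pc (-1.38), which was not called. Its signals ran from 12.54 to 14.31 in CONT and from 10.94 to 13.45 in PCN livers. The summed signal of 7 cholangiocyte markers (of 8 listed) was 1698 to 5114 in WT CONT and 3598 to 8284 in WT PCN livers, and 2054 to 3641 and 2532 to 6128 in the Pxr-/- groups, ranges that overlap. Summed markers of Kupffer, stellate and endothelial cells, lymphocytes and blood also overlapped between PCN and control livers in each genotype. Among the 10 stellate markers, however, the 2 fibrillar collagen genes rose with PCN in both genotypes. At an adjusted p of at most 0.05 (limma), 2 of the 10 were higher and 1 lower in WT mice. In Pxr-/- mice 3 were higher and 0 lower, collagens included. Over all probes 11.0% were higher and 12.0% lower in WT, and 3.04% and 3.27% in Pxr-/- mice. Col1a1 was 8.03 to 8.77 in WT CONT and 10.11 to 12.46 in WT PCN livers (3.17, adjusted p = 2.33e-05), and 8.13 to 9.01 and 8.66 to 11.78 in the Pxr-/- groups (1.96, adjusted p = 0.00628). Col3a1 changed by 2.18 and 1.22 (adjusted p = 1.73e-04 and 0.033), while Lrat, Des and Dcn did not pass in either genotype. Of the 7 cholangiocyte markers, 4 had positive and 3 negative changes in WT mice, and only Sox9 was called (0.76, adjusted p = 0.0109). In Pxr-/- mice 5 were positive and 2 negative, and 0 were called. Among 8 lymphocyte markers 1 was called lower in WT mice, as was 1 of 4 blood markers, and 0 of either list in Pxr-/- mice. The part of these cells in the results was not tested.

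After PCN the oxidative phosphorylation genes had slightly negative changes, almost as a block, in Pxr-/- mice, whereas in WT mice the direction depended on how the arrays were scaled. Changes are given as PCN minus control on the log2 scale, and levels are quantile normalized log2 signals unless stated. Over the 72 subunits of the 5 complexes, leaving out isoforms specific to other tissues, the median change was -0.15 in Pxr-/- mice, with 70 of 72 subunits negative, and -0.11 in WT mice, with 66 of 72 negative. Over all 32087 probes the medians were -0.009 and -0.023. The members were much brighter than most of these probes, with a median level of 14.68 beside 7.79. Whether such small shifts depend on the signal level was not tested. Of the 88 members, 10 were called lower (adjusted p of at most 0.05 at any fold) and 0 higher in Pxr-/- mice, where 3.27% of all probes were called lower and 3.04% higher. At an unadjusted limma p under 0.05, 45 of the 88 members were lower and 0 higher, beside 3660 lower and 3283 higher of all 32087 probes. The count of 10 was not stable: it was 1 with the log2 values deposited by the authors and 4 to 12 when 1 mouse was left out, and 0 within either washing batch. Of the genes named below, Ndufv3, Ndufa1, Ndufv1, Sdha, Cox8a and Atp5o passed in Pxr-/- mice under 5 to 10 of 15 alternative settings each, with negative values under all of them, and these and Uqcr10 did not pass with the deposited values. In WT mice 19 members were called lower and 1 higher, where 12.0% of all probes were called lower and 11.0% higher. With a fold above 1.5 as well, 2 members were called lower and 1 higher in WT mice, beside 2.13% and 3.38% of all probes, and 1 lower in Pxr-/- mice, beside 0.698%. In liver RNA, fewer cells of a type and less RNA per cell cannot be told apart.

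WT PCN arrays were brighter before normalization (mean log2 signal over all kept probes 8.65 ± 0.09, SD, n = 5) than WT CONT arrays (8.51 ± 0.12, n = 6). Whether this brightness made the scaling matter was not tested. The Pxr-/- arrays had means of 8.41 ± 0.14 (n = 6) without and 8.45 ± 0.07 (n = 6) with PCN. Across 7 scalings of the same arrays, the median of the 72 subunits in Pxr-/- mice stayed between -0.16 and -0.11, relative to the median of all probes it was between -0.15 and -0.13, and 69 of 72 subunits were below that median each time. In WT mice it ran from -0.11 to 0.14. Relative to the median of all probes it was -0.09 to -0.07 with the 3 signals quantile normalized over all arrays, and 0.02 to 0.03 with the 4 others: scaling to the 75th percentile (-0.02, 47 of 72 negative), stacked quantile normalization, in which long columns made of 1 array of each group are normalized together (0.13, 7 of 72 negative), no normalization (0.14, 5 of 72 negative) and the log2 values deposited by the authors (0.14, 4 of 72 negative). Under the last 3 of these the median of all probes itself was 0.11 higher after PCN in WT mice. A change of the subunits as a group in WT mice was therefore not separated from the choice of scaling.

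**Figure D1:**
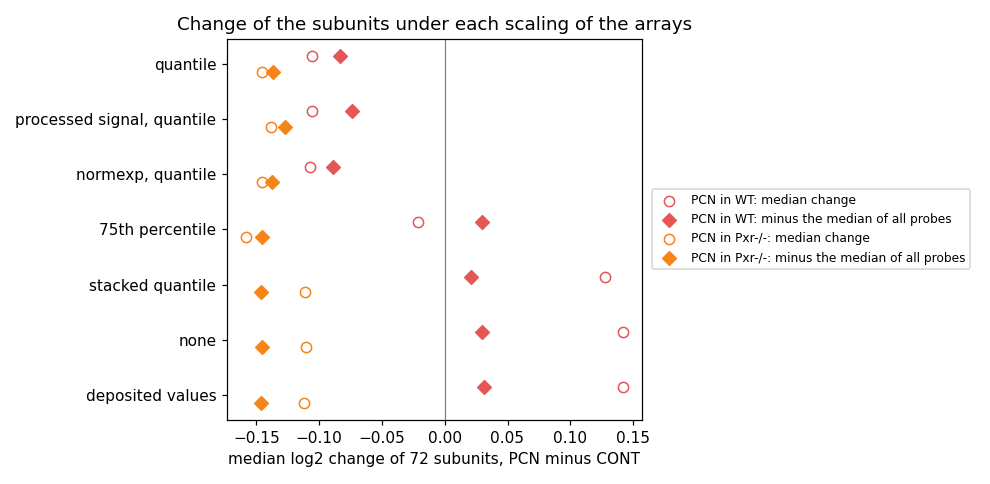
Median log2 change (PCN minus CONT) of the 72 subunits under 7 ways of scaling the arrays, for WT (red) and Pxr-/- mice (orange). Open circles are the median change and filled diamonds the same minus the median of all kept probes: all Pxr-/- symbols lie at or below -0.11, whereas the WT symbols lie on both sides of 0.

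Signals of single mice show how small these shifts are. The mean log2 signal over the 35 probes of complex I ran from 14.42 to 14.57 (median 14.46) in WT CONT mice and was 14.41, 14.40, 14.34, 14.27 and 14.38 in the 5 WT PCN mice. The Pxr-/- mice ran from 14.39 to 14.52 (median 14.48) without and from 14.29 to 14.39 (median 14.34) with PCN. On this scale the groups did not overlap in either genotype, by narrow margins in both. For complex III the Pxr-/- groups were apart (15.28 to 15.50 in CONT, 15.20 to 15.26 in PCN), and the WT groups overlapped (15.22 to 15.47 and 15.18 to 15.32). The ATP synthase means were likewise apart in Pxr-/- mice, by a narrow margin (15.44 to 15.61 in CONT, 15.34 to 15.44 in PCN), and overlapped in WT mice (15.45 to 15.66 and 15.37 to 15.52). The means of complex IV without tissue isoforms were apart in both genotypes, at 15.16 to 15.34 and 15.03 to 15.16 in WT and at 15.13 to 15.31 and 15.00 to 15.13 in Pxr-/- mice, again by narrow margins. Complex II overlapped in both genotypes. By complex, the median change in Pxr-/- mice was -0.13 for complex I, -0.15 for complex II, -0.17 for complex III, -0.17 for complex IV and -0.15 for ATP synthase, negative under all 7 scalings. The WT medians were -0.11, -0.08, -0.08, -0.10 and -0.11, and each was positive with the deposited log2 values, with stacked quantile normalization and without normalization. The 7 assembly factors had medians of -0.04 in Pxr-/- and 0.04 in WT mice.

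**Figure D2:**
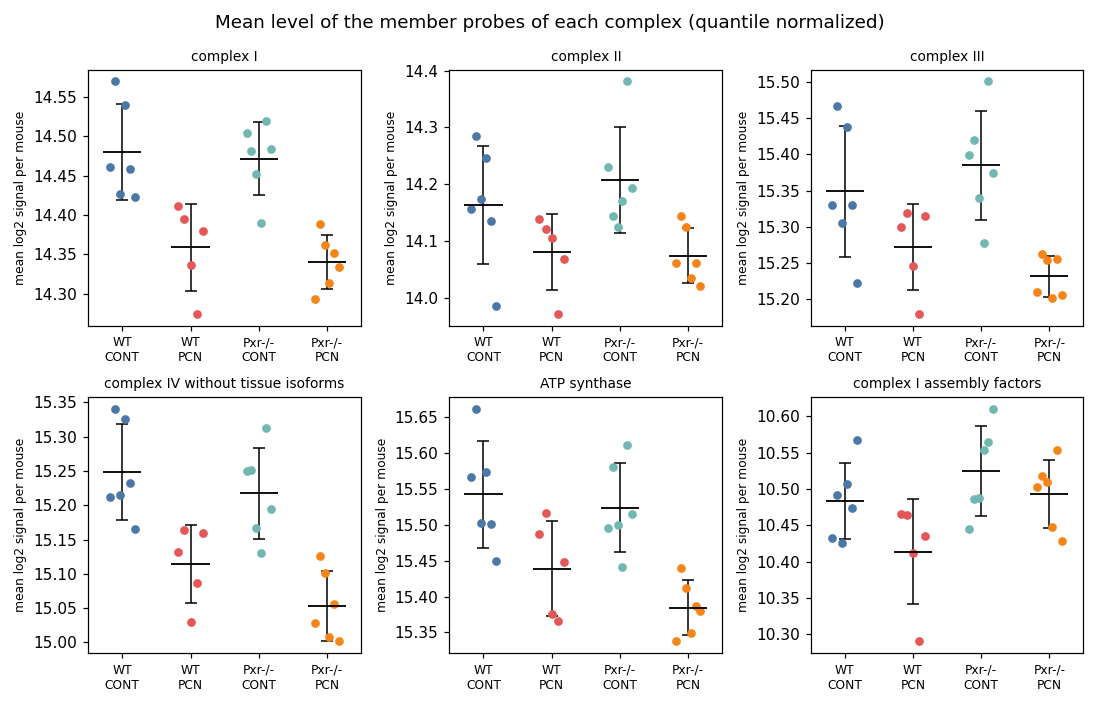
Mean log2 signal of the member probes of each complex in each mouse (points), with the group mean (line) and SD (bars), quantile normalized, n = 6, 5, 6 and 6. The y axes differ between panels and cover narrow ranges, and the Pxr-/- PCN mice sit below the Pxr-/- CONT mice in complexes I and III.

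Among the 35 genes of complex I, which oxidizes NADH, 9 were called lower in WT and 5 in Pxr-/- mice, and 0 higher. For this and the other complexes, the shares of all probes called lower were 12.0% in WT and 3.27% in Pxr-/- mice. Ndufv3, a small accessory subunit of the NADH-binding module, had log2 signals of 15.21 to 15.42 in WT CONT and of 15.05, 14.96, 14.95, 14.91 and 15.08 in WT PCN mice, a change of -0.35 ± 0.06 (SE, adjusted p = 2.74e-04). Among Pxr-/- mice it ran from 15.29 to 15.47 without and from 15.05 to 15.26 with PCN (-0.22 ± 0.06, adjusted p = 0.0233). Its groups did not overlap in either genotype. Ndufa3, an accessory subunit of the membrane arm, was 15.07 to 15.24 in WT CONT and 14.83, 14.80, 14.85, 14.74 and 14.88 in WT PCN mice (-0.32, adjusted p = 2.64e-04). All WT PCN mice were below all WT CONT mice. Its Pxr-/- groups overlapped (-0.09, adjusted p = 0.349), and the difference between the genotypes in the effect did not pass (-0.23, 95% interval -0.39 to -0.08, adjusted p = 0.134). Ndufa1, another membrane-arm subunit, had changes of -0.34 (adjusted p = 0.00209) and -0.26 (adjusted p = 0.0299).

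Ndufv1, the core subunit that binds NADH and FMN, had changes of -0.26 in WT (adjusted p = 0.00118) and -0.18 in Pxr-/- mice (adjusted p = 0.0366), but a second probe of the gene gave 0.03 in WT mice (adjusted p = 0.907). With the deposited log2 values the changes in WT mice were -0.09 for Ndufv3, -0.06 for Ndufa3 and 0.002 for Ndufv1, and none of these passed. The catalytic core as a whole (7 subunits) had median changes of -0.09 and -0.10, with 1 of 7 called lower in each genotype. Ndufs1, the largest iron-sulfur subunit, and Ndufa9 did not pass in either genotype (-0.04 and -0.11 in WT, -0.10 and -0.13 in Pxr-/- mice), nor did Ndufb8 (-0.17 and -0.19). Ndufc2 had the highest value of the complex in WT mice (0.11, adjusted p = 0.213).

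Complex II, or succinate dehydrogenase, also works in the TCA cycle. Its flavoprotein Sdha was 13.64 to 13.94 in WT CONT and 13.76, 13.55, 13.71, 13.46 and 13.62 in WT PCN mice, which overlap (-0.20, adjusted p = 0.035). In Pxr-/- mice the groups were apart, at 13.74 to 14.01 without and 13.52 to 13.71 with PCN (-0.23, adjusted p = 0.0396). The WT value was 0.01 with the deposited log2 values, and the 3 other probes of Sdha gave -0.02, -0.23 and -0.10 in WT mice, none of which passed. Sdhb, the iron-sulfur subunit, had -0.06 and -0.17, and the membrane anchor Sdhc 0.05 and -0.004, and neither passed in either genotype.

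In complex III, which hands electrons from ubiquinol to cytochrome c, 0 of 8 genes were called in WT and 1 in Pxr-/- mice. The core proteins Uqcrc1 and Uqcrc2 had changes of -0.09 and -0.17 in WT mice and of -0.17 and -0.17 in Pxr-/- mice. The Rieske iron-sulfur protein Uqcrfs1 had -0.07 (adjusted p = 0.454) and -0.20 (adjusted p = 0.0583). The called gene was the small subunit Uqcr10, named here after its values were seen (-0.21, adjusted p = 0.0281). In WT mice the median of the complex turned positive, to 0.16, with the deposited log2 values.

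In complex IV, cytochrome c oxidase, the largest change of all members belonged to Cox7a1, the isoform of subunit VIIa typical of heart, skeletal muscle and brown fat. Its probe lies on chr7:30970337-30970948 (mm9) and spans 612 bases of the genome with 60 bases of sequence, so it crosses an intron. It is shown because this single probe carries the value, in lower case as the array file gives it.
Cox7a1 probe: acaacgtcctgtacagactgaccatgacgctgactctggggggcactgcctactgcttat
The WT CONT mice had log2 signals of 9.69, 10.33, 9.62, 9.39, 9.76 and 8.94, and the WT PCN mice of 8.41, 7.98, 7.98, 7.90 and 8.20. Every WT PCN mouse was below every WT CONT mouse, and the change of -1.53 ± 0.22 (SE) was a fall to 0.347 of the control level (adjusted p = 4.65e-05). The Pxr-/- CONT mice had 9.32, 10.18, 9.39, 8.65, 9.69 and 9.66, and the Pxr-/- PCN mice 8.72, 8.74, 8.48, 8.31, 8.50 and 8.82.

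Here the groups overlapped only through the Pxr-/- CONT mouse at 8.65, and the change was -0.89 ± 0.21 (0.541 of the control level, adjusted p = 0.0132). Cox7a1 was thus called lower in both genotypes, and the difference between the 2 effects did not pass (-0.64, 95% interval -1.26 to -0.02, adjusted p = 0.329). In WT mice the call held under all 15 alternative settings (-1.65 to -1.39). The call in Pxr-/- mice was lost in the 2 fits within 1 washing batch (-0.82 and -0.96). Of 10 markers of striated muscle and brown fat, 3 passed the filter (Cidea, Myh4 and Tnnt3), and Actn3, Mb, Myh2 and Ucp1 were not above background on any array. The 3 were dim, with group means of 5.36 to 6.17, so that a fall could hardly be read from them. Their part in the change of Cox7a1 was not tested. Cidea had -0.37 in Pxr-/- mice (adjusted p = 0.227), and the summed linear signal of the 3 was 137 to 174 in WT CONT, 137 to 174 in WT PCN, 144 to 254 in Pxr-/- CONT and 154 to 199 in Pxr-/- PCN livers.

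**Figure D3:**
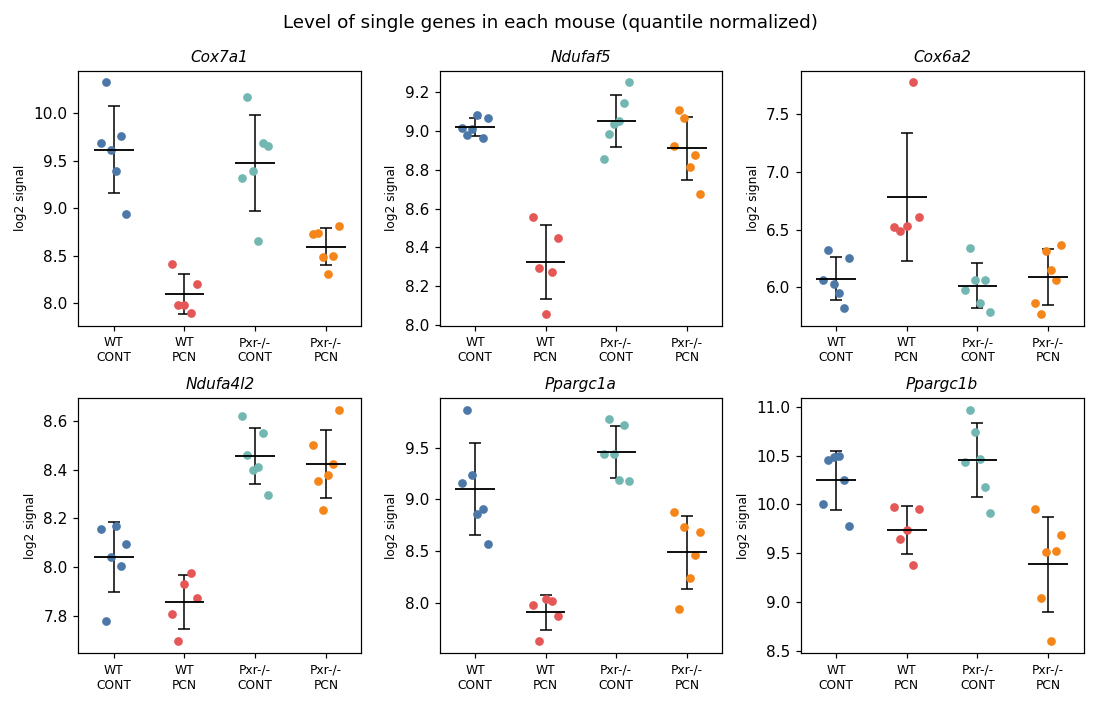
Quantile normalized log2 signal of 6 genes in each mouse (points), with the group mean (line) and SD (bars). Cox7a1 and Ppargc1a are lower with PCN in both genotypes, Ndufaf5 in WT mice, and the WT PCN mean of Cox6a2 is raised by 1 mouse at 7.78.

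Cox6a2, the muscle isoform of subunit VIa, was the 1 member called higher after PCN. It had 5.82 to 6.33 in WT CONT mice and 6.52, 6.49, 6.53, 7.78 and 6.61 in WT PCN mice (0.70, 1.63-fold, adjusted p = 0.00775). All WT PCN mice were above all WT CONT mice, but 1 of them stood far from the rest. Without it the change was 0.46 and still passed at any fold (adjusted p of 0.0224 or less in every fit that left out 1 mouse), and within the second washing batch it was 0.33 (adjusted p = 0.294). In Pxr-/- mice the groups overlapped (5.79 to 6.34 and 5.77 to 6.37). Like the muscle and brown fat markers above, Cox6a2 was dim, with group means of 6.02 to 6.78 beside a median level of 14.68 over the members. With normexp background correction its rise in WT mice was not called past the fold threshold. How far the size of this rise depends on the low signal was not tested. The other tissue isoforms that were measured, Cox4i2 and Cox6b2, had changes of 0.08 and 0.01 in WT and of -0.16 and -0.15 in Pxr-/- mice, and none passed.

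The ubiquitous subunits of complex IV moved less. Cox8a, the smallest, was 16.23 to 16.50 in Pxr-/- CONT and 16.04 to 16.17 in Pxr-/- PCN mice, with no overlap (-0.26, adjusted p = 0.016), and its WT groups overlapped (-0.04, adjusted p = 0.682). The difference between these effects did not pass (0.21, adjusted p = 0.267). Cox7a2, the liver isoform of subunit VIIa, had -0.21 in WT mice (adjusted p = 0.0293; 0.05 with the deposited log2 values) and -0.15 in Pxr-/- mice (adjusted p = 0.17). Cox4i1 and Cox5a had -0.17 and -0.13 in WT mice and -0.16 and -0.11 in Pxr-/- mice, and neither passed. Cox6a1, the liver isoform beside Cox6a2, had -0.03 and -0.18 and did not pass.

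In ATP synthase 3 of 15 genes were called lower in WT and 1 in Pxr-/- mice, beside 12.0% and 3.27% of all probes. Atp5h, the d subunit of the peripheral stalk, was 15.50 to 15.79 in WT CONT and at most 15.49 in WT PCN mice (-0.24, adjusted p = 0.0081), but its change was 0.00 with the deposited log2 values. Atp5o, the stalk subunit that confers sensitivity to oligomycin, was called in Pxr-/- mice (-0.21, adjusted p = 0.0445) and not in WT mice (-0.12). The catalytic subunits Atp5a1 and Atp5b had -0.12 and -0.04 in WT mice and -0.20 and -0.10 in Pxr-/- mice, and none passed. The 3 genes of the proton-carrying c ring, Atp5g1, Atp5g2 and Atp5g3, had -0.11, -0.04 and -0.17 in WT mice and -0.15, -0.20 and -0.08 in Pxr-/- mice, and none passed.

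**Figure D4:**
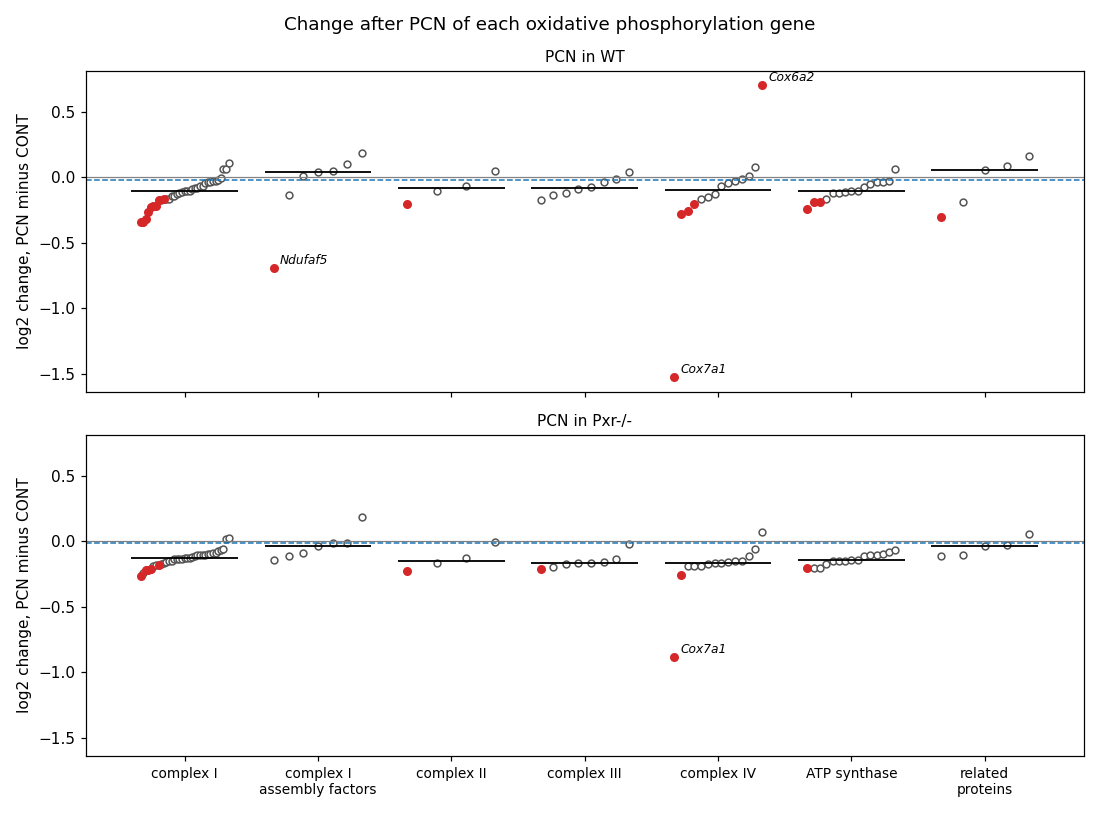
Log2 change after PCN of each of the 88 members, by complex, in WT (top) and Pxr-/- mice (bottom). Filled red points passed an adjusted p of 0.05, black lines are medians of the complex and the dashed line is the median of all kept probes. Most points lie just below 0, and Cox7a1 at -1.53 and -0.89 lies far from the other members.

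Ndufaf5, an assembly factor that hydroxylates a subunit of complex I, was the 1 member whose response to PCN differed between the genotypes. It had 8.97 to 9.08 in WT CONT mice and 8.56, 8.29, 8.05, 8.27 and 8.45 in WT PCN mice. Every WT PCN mouse was below every WT CONT mouse (-0.70 ± 0.09, 0.617 of the control level, adjusted p = 1.48e-05), and this call held under all 15 alternative settings. In Pxr-/- mice the groups overlapped (8.86 to 9.25 without and 8.67 to 9.11 with PCN, change -0.14, adjusted p = 0.349). The effects differed by -0.55 (95% interval -0.81 to -0.30, adjusted p = 0.0222), where 0.446% of all probes were called in this direction and 0.898% in the other. This difference was negative under all 14 alternatives but passed under 7 of them. Among those under which it did not pass were the deposited log2 values (-0.47, adjusted p = 0.161), stacked quantile normalization (adjusted p = 0.255), no normalization (adjusted p = 0.283), and washing batch 1 or 2 alone (adjusted p = 0.126 and 0.192).

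The probes of Ndufaf5 disagreed. The brighter one spans 4730 bases of chr2:140014595-140019324 (mm9), across at least 1 intron, and a dimmer one lies at the 5′ end of the gene, on chr2:139996598-139996657. Both are shown since the result differs between them.
Ndufaf5 probe with the change: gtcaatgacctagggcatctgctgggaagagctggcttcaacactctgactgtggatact
Ndufaf5 probe at the 5′ end: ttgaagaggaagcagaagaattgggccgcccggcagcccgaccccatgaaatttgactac
The second probe had changes of -0.01 in WT (adjusted p = 0.935) and 0.09 in Pxr-/- mice (adjusted p = 0.497). Averaged over both probes, the change was -0.35 in WT mice and the difference between genotypes -0.33 (adjusted p = 0.0874). The other 6 Ndufaf genes were not called, among them Ndufaf6 (0.18 in WT mice, adjusted p = 0.0604). Over all members, 34 genes had 45 further probes, and these had the sign of the brightest probe in 34 cases in WT and in 41 cases in Pxr-/- mice.

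The members called in the 2 genotypes were in part the same. Cox7a1, Ndufa1, Ndufv3, Ndufv1 and Sdha (5 genes) were called lower in both, which is 5 of 19 in WT and 5 of 10 in Pxr-/- mice. The 2 effects were measured on different arrays, and with quantile normalization 70 of 88 members were negative in both. Across the 88 genes the changes correlated with a Pearson r of 0.72 and a Spearman rho of 0.30. Pearson's r was 0.42 without Cox7a1 and 0.24 over the 72 subunits (Spearman rho 0.11), and genes are not independent replicates. The shared sign depended on the scaling, since only 4 of the 72 subunits were negative in WT mice with the deposited log2 values. With the deposited log2 values, the calls in the lower direction were 2 of 88 in WT mice, Cox7a1 and Ndufaf5, and 8 members were called higher, where 3.65% and 17.5% of all probes were called lower and higher. There Cox7a1 alone was called lower in Pxr-/- mice, and 0 members were called higher, where 1.02% and 2.21% of all probes were. Groups that did not overlap, with PCN lower, were seen for 12 members in WT and 9 in Pxr-/- mice, where 6.16% and 1.46% of all probes did so.

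Without PCN the median difference of the 72 subunits (Pxr-/- minus WT) was 0.002, with 35 of 72 negative. This too depended on the scaling, with -0.08 and 67 of 72 negative for the deposited log2 values and 0.06 and 13 of 72 negative for the 75th percentile, and relative to all probes it was between -0.002 and 0.03 under all 7 scalings. Of the members, 1 of 88 was called, Ndufa4l2, in the direction where 0.302% of all probes were called. Ndufa4l2 is a relative of Ndufa4 known to be induced by hypoxia. It had 7.78 to 8.17 in WT CONT and 8.29 to 8.62 in Pxr-/- CONT mice (0.41, adjusted p = 0.0142) and was 7.81, 7.69, 7.93, 7.98 and 7.87 in WT PCN and 8.23 to 8.65 in Pxr-/- PCN mice (0.57, adjusted p = 1.94e-04). The genotypes did not overlap in either treatment, and its changes after PCN did not pass (-0.19 and -0.03). The call without PCN was lost under 6 of 15 alternatives, with adjusted p up to 0.317.

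Among PCN-treated mice the median difference was -0.04, and 3 members were called higher and 2 lower in Pxr-/- than in WT mice, where 3.56% and 4.39% of all probes were called. Higher were Ndufaf5 (0.59, adjusted p = 3.09e-04), Ndufa4l2, and Atp5sl (0.30, adjusted p = 0.0305), a protein of complex I assembly despite its name. Lower were Cox6a2 (-0.69, adjusted p = 0.0237) and Atp5k, the e subunit of ATP synthase (-0.24, adjusted p = 0.0197). With the deposited log2 values 64 members were called lower and the median of the subunits was -0.31, beside -0.18 for all probes, of which 23.2% were called lower. Under all 7 scalings the subunits lay below the median of all probes in this comparison (-0.14 to -0.05 relative to it).

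The subunits encoded in mitochondrial DNA were not members by name and were read from 11 genes of a separate list. Changes after PCN were negative for 10 of the 11 in each genotype, and the highest was 0.13 in WT and 0.16 in Pxr-/- mice. The median change of the 11 was -0.22 in WT mice, with 6 called lower and 0 higher, beside 12.0% and 11.0% of all probes. In Pxr-/- mice it was -0.15, with 2 called lower and 0 higher, beside 3.27% and 3.04% of all probes. This median was below that of all probes in each genotype under all 7 scalings (relative values -0.20 to -0.12 in WT and -0.16 to -0.12 in Pxr-/- mice). ATP8, named here after its values were seen, encodes a membrane subunit of ATP synthase. It was 15.12 to 15.48 in WT CONT and 15.13, 14.95, 14.93, 14.94 and 14.83 in WT PCN mice (-0.35, adjusted p = 0.0041), and 15.24 to 15.47 and 14.83 to 15.30 in Pxr-/- mice without and with PCN (-0.30, adjusted p = 0.0234). These groups overlapped by 1 PCN mouse in each genotype. With the deposited log2 values 0 of the 11 passed in either genotype. How the arrays' labelling captures mitochondrial transcripts was not tested.

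The coactivator gene Ppargc1a was called lower in both genotypes, and Ppargc1b in Pxr-/- mice, without a called difference between the genotypes for either. Ppargc1a, which encodes PGC-1α, was 8.57 to 9.87 in WT CONT and 7.98, 7.63, 8.04, 8.02 and 7.87 in WT PCN mice, with no overlap (-1.20 ± 0.18, adjusted p = 9.88e-05). It was 9.18 to 9.77 in Pxr-/- CONT and 7.94 to 8.88 in Pxr-/- PCN mice, again apart (-0.96 ± 0.18, adjusted p = 0.0031), and the effects did not differ by the test (-0.24, adjusted p = 0.732). Ppargc1b, which encodes PGC-1β, was 9.91 to 10.97 in Pxr-/- CONT and 8.59 to 9.95 in Pxr-/- PCN mice (-1.07 ± 0.19, adjusted p = 0.00255), with a change of -0.53 in WT mice (adjusted p = 0.0566). The difference between its 2 effects did not pass either (0.54, adjusted p = 0.385). Among 19 regulators of mitochondrial biogenesis, 2 were called higher and 2 lower in WT and 0 and 2 in Pxr-/- mice, with medians of -0.01 and -0.01. Over all probes 11.0% were called higher and 12.0% lower in WT, and 3.04% and 3.27% in Pxr-/- mice. Within the second washing batch alone the fall of Ppargc1a in WT mice did not pass (-1.26), and in Pxr-/- mice the falls of both coactivators did not pass within either batch.

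Other mitochondrial gene groups are given by their counts and medians, and their difference from the members was not tested. The counts stand beside 11.0% of all probes called higher and 12.0% lower in WT mice, and 3.04% and 3.27% in Pxr-/- mice. Several of the counts lie near these shares. In WT mice the medians of the TCA cycle, the electron carriers and the regulators lay at or above that of all probes under all 7 scalings, as did that of the subunits under 4 of them. In Pxr-/- mice 2 of these groups were also on the negative side. The TCA cycle had a median of -0.09 there, with 11 of 13 genes negative, and lay -0.09 to -0.08 from all probes under the 7 scalings, and the electron carriers had -0.06, with 12 of 17 negative (-0.06 to -0.04 from all probes). The 42 assembly factors outside the name rule had 5 genes called higher and 2 lower in WT mice (median 0.06) and 0 and 1 in Pxr-/- mice (-0.05). Among 17 genes of electron carriers, which make or serve ubiquinone and cytochrome c, 4 were called higher and 3 lower in WT and 0 and 2 in Pxr-/- mice. Adck3, a protein of ubiquinone synthesis, was 11.00 to 12.69 in WT CONT and 12.80, 12.05, 12.33, 12.69 and 12.89 in WT PCN mice (0.79, adjusted p = 0.0305), a call lost under 4 of 15 alternatives and in 6 fits that left out 1 mouse (lowest 0.61, without WT CONT replicate 1). Etfdh, which passes electrons from β-oxidation to ubiquinone and was named after its values were seen, fell in WT (-0.53, adjusted p = 6.20e-04) and Pxr-/- mice (-0.42, adjusted p = 0.0108). The list of carriers and the inhibitor of ATP synthesis held Slc25a3, Slc25a4, Slc25a5, Ucp2, Vdac1, Vdac2, Vdac3 and Atpif1. Of these 8 genes, 2 were called higher in WT mice and 0 in Pxr-/- mice. Of 13 TCA cycle genes 1 was called higher and 2 lower in WT, and 0 and 2 in Pxr-/- mice. Of 76 mitochondrial ribosomal protein genes 15 were called higher and 4 lower in WT (median 0.04), and 0 and 2 in Pxr-/- mice (-0.01).

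**Figure D5:**
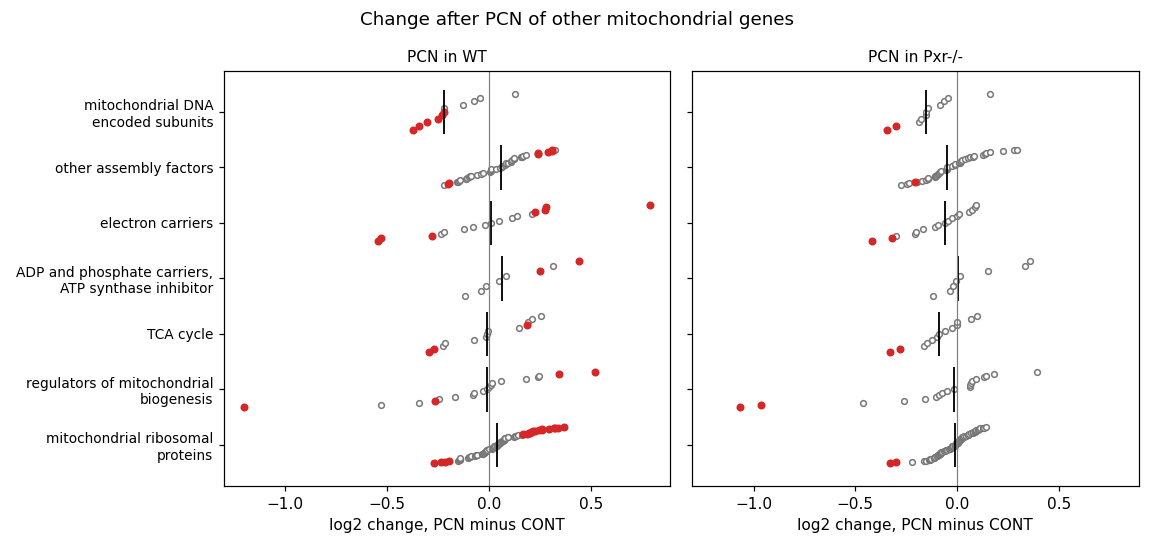
Log2 change after PCN of genes in 7 mitochondrial groups outside the members, in WT (left) and Pxr-/- mice (right). Filled red points passed an adjusted p of 0.05 and black lines are group medians. Of the 11 subunits encoded in mitochondrial DNA, 10 lie to the left of 0 in each panel, and Ppargc1a lies at -1.20 and -0.96.

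Promoters of the members were searched for the cores of 4 factors known to bind oxidative phosphorylation genes, in RefSeq sequence of GRCm38.p6 from 250 bases before to 50 after each start, on both strands, for the 74 of 91 members found in the table. The NRF1 core GCGCATGC was held by 16.2% of members and 3.05% of all 27025 genes, the ETS core CCGGAAGT by 6.76% and 4.31%, the YY1 core AAGATGGCG by 10.8% and 1.64%, and the ERR element TCAAGGTCA by 2.7% and 0.466%. At least 1 of the 4 was found for 26 of 74 members (35.1%) and 8.93% of all genes. The NRF1 core is close to its own reverse complement, so that its matches on the 2 strands overlap. Among the 24 members called lower in either genotype, 21 were in the table and 7 of these (33.3%) held at least 1 core, near the share of all members. The promoters of the 4 members with the lowest adjusted p in WT mice are shown from 250 bases before to 30 after the start, with matches in capitals. Ndufaf5 held the NRF1 core, and the windows of Cox7a1, Ndufa3 and Ndufv3 held none of these letters.
Cox7a1, chr7:30183921-30184200, + strand: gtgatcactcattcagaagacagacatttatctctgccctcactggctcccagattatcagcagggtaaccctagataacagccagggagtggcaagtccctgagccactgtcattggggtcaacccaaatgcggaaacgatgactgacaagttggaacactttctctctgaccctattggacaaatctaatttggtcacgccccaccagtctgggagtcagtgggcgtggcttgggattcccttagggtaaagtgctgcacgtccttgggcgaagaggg
Ndufaf5, chr2:140170396-140170675, + strand: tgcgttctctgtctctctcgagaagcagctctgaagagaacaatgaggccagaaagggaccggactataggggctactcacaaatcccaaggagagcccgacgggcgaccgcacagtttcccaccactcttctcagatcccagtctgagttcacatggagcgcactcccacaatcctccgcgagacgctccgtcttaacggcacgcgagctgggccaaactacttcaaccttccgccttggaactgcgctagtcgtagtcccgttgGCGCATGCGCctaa
Ndufa3, chr7:3617123-3617402, + strand: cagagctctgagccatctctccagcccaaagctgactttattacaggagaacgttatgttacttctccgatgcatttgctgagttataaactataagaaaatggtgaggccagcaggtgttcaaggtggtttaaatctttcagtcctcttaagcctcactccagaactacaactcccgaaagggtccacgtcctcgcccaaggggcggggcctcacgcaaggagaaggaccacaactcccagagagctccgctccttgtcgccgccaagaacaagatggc
Ndufv3, chr17:31519865-31520144, + strand: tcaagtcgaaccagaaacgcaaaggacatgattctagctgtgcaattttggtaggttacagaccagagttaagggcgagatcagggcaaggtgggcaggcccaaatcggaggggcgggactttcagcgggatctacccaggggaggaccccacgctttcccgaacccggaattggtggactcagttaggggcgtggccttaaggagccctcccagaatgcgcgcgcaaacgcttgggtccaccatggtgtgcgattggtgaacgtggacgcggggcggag
Such a match is a description of the letters and not a bound site.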

How the data were processed

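Liver RNA of 23 mice was hybridised to Agilent 1-colour arrays, 1 array per mouse. Groups, replicate numbers and 2 washing batches came from the labels, and 8 slides from the file headers. All groups had 3 arrays in either washing batch, but for 2 WT PCN arrays in batch 2. Per the file headers, the deposited scanner files hold intensity values of Agilent Feature Extraction 10.10.1.1, not normalized between arrays. The authors also deposited log2 values which, by the methods of the study, were filtered, corrected for washing batch and normalized with CrossNorm (column medians 7.54 to 8.01). How those arrays were stacked was not given in the sources used here. The values of the 4 groups are the submitters' arrays as labelled, and replicates are separate mice.

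From the scanner files, spots flagged as outliers (2225) were set to missing, log2 median signals were averaged per probe, and a probe was kept if in any group over 50% of arrays had it well above background (32087 of 56605 probes; 29510 to 33321 were so on an array). They were quantile normalized and fitted with limma 3.58.1 in R 4.3.3 (files read with data.table, version 1.17.8), with group and washing batch as additive terms (18 residual degrees of freedom). Benjamini-Hochberg adjustment covered all kept probes. Calls used an adjusted p of at most 0.05, at any fold or with a fold above 1.5. The script was tested on simulated data. Because of the batch term, fitted changes can differ slightly from differences of group means. Arrays count no molecules, so their number limits the precision.

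The members and gene lists were chosen with earlier results of these data known. Genes named were up to 8 members of each comparison past the fold threshold, up to 5 of each direction past the adjusted p alone, fixed representatives of the complexes, tissue isoforms, the highest and lowest change of each complex in WT mice, and up to 3 genes of each other list past the fold threshold. Others are said to be named after their values were seen. Alternatives changed the signal, background correction, scaling, filter, batch, slide, probe choice or samples. The fit without normalization between arrays was added after seeing the data. Probe coordinates are mm9 and promoters GRCm38.p6, and the builds were not mixed.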

Additional observations from a re-analysis of the deposited data

Results flagged for a closer look

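Of 172 groups of 5 or 6 mice tested for a value far from the others, 10 had one, and chance flags about 1 in 20 groups. The largest gap was that of Cox6a2 in WT PCN replicate 4, at a log2 signal of 7.78 where the next mouse had 6.61, and the change with and without this mouse is given above. Lower than their groups were Ndufa1 in Pxr-/- PCN replicate 4 (14.3), Ndufa9 in WT PCN replicate 4 (12.7) and in Pxr-/- CONT replicate 4 (12.7), Atp5o in Pxr-/- CONT replicate 4 (15.6), Atp5h in Pxr-/- PCN replicate 1 (15.3) and Atp5c1-ps in WT CONT replicate 6 (11.6). Higher were Cox6a1 (17.9) and Atp5g3 (16.3), both in Pxr-/- CONT replicate 5, and the mean of complex IV in WT CONT replicate 2 (13.1).

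The response of Ndufaf5 to PCN differed between the genotypes by -0.55 on the log2 scale, by the interaction term of the fit. It was seen with 1 of 2 kept probes of the gene.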

How the results depend on the processing

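In WT mice Cox7a1 and Ndufaf5 were called lower after PCN under all 15 alternatives, and in Pxr-/- mice the medians of the 5 complexes stayed negative under all 15. The WT medians of the complexes and the counts of calls depended on the scaling. Median changes after PCN in WT mice for complexes I, II, III, IV and ATP synthase and for the 72 subunits were 0.14, 0.16, 0.16, 0.11, 0.14 and 0.14 with the deposited log2 values, 0.14, 0.16, 0.16, 0.11, 0.14 and 0.14 without normalization, and 0.13, 0.16, 0.15, 0.10, 0.13 and 0.13 with stacked quantile normalization. With the 75th percentile those of complexes I to III, ATP synthase and the subunits were -0.022, 0.0014, 0.00046, -0.027 and -0.022. In the same order (deposited, none, stacked) the subunits' median difference between the PCN effects was 0.23, 0.23 and 0.22, that between genotypes in CONT -0.077, -0.079 and -0.080, and that in PCN -0.31, -0.32 and -0.30. With the 75th percentile the first was 0.11 and the second 0.062. The cause was not tested.

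Members called lower in WT mice numbered 2, 2 and 2 in that order, 7 with the 75th percentile, 12 with only the groups compared, and 3 and 4 within washing batches 1 and 2, which hold fewer arrays. Members called higher numbered 8, 6 and 6, 2 with the 75th percentile, with the processed signal and with normexp, and 0 within batch 2. With a fold above 1.5, 0 were higher with normexp and within batch 2, and 1 was lower with the 3 scalings, with the mean of all probes of a gene and within batch 1. In Pxr-/- mice members called lower numbered 1, 1 and 1, 6 without the filter, 4 with only the groups compared, and 0 within either batch, and 0 passed the fold there. The difference between the PCN effects was called for 0 members with the 3 scalings, with the mean of probes and within either batch. Between the genotypes in CONT, 0 members were higher with the 3 scalings, with only the groups compared and within either batch. In PCN 64, 45 and 50 members were lower and 0 with only the groups compared or within either batch, and 1 was higher without normalization and 0 within batch 2.

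Leaving out each mouse in turn gave 1 to 2 members called higher and 0 to 1 past the fold in WT mice, 4 to 12 called lower in Pxr-/- mice and 1 to 2 called lower between the genotypes in PCN. The count in Pxr-/- mice was 4 without CONT replicate 1, CONT replicate 5 or PCN replicate 4, and 5 without PCN replicate 3. Single genes whose call turned in sign in WT mice were ND3 (0.025 deposited, 0.015 stacked, 0.028 without normalization), ND5 (0.029, 0.020 and 0.031), Cox7a2 (0.050, 0.039 and 0.051), Sdha (0.010, 0.0018 and 0.010), Ndufv1 (0.0019 deposited, 0.0040 without normalization) and Atp5h (5.9e-05 deposited). Between the genotypes in PCN, values called with the deposited log2 values and of opposite sign before were those of Atp5h (-0.25), Cox5a (-0.26), Ndufa9 (-0.21), Ndufb8 (-0.28, and -0.27 stacked), Ndufv1 (-0.27), Sdha (-0.28), Uqcrc1 (-0.27) and Uqcrc2 (-0.26).

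Correlations of deviations averaged 0.06 over 33 pairs of mice with the same replicate number (-0.17 to 0.61). Over 165 pairs with different numbers they averaged -0.01 (-0.30 to 0.36). These values do not settle whether the replicate numbers of the labels pair the mice. With the replicate block 21 members were called lower in WT, 9 in Pxr-/- mice and 0 for the difference between the PCN effects (Ndufaf5, -0.55, adjusted p = 0.0648). The slide block changed no count (correlation 0.0095).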
